A study of Homo sapiens with 14 samples.

Results

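The 7 fucosyltransferase genes FUT1, FUT2, FUT3, FUT4, FUT8, FUT10 and FUT11 were followed by line and by oxygen in RNA-seq of 2 cancer cell lines. They were picked by symbol from the 23106 gene symbols counted, with their levels and their change in hypoxia already known. Those values are therefore given as a description. Where a fit across all genes called one of the 7, that is stated as what the fit returned, without a p-value, and it is no independent test of the gene. The lists of related genes further below were also chosen with earlier results of these data known. Their adjusted p-values state what the fit returned and are no independent test either. PC3 is a line from a prostate carcinoma and HCT116 a line from a colorectal carcinoma. Each had its own medium, McCoy's 5a for HCT116 and DMEM/Hams F12 for PC3, so line and medium cannot be told apart. Neither line carried a genetic change made for the experiment. Cells were kept in normoxia (21% O2) or hypoxia (0.5% O2) for 16 h before polyadenylated RNA was sequenced, which gave 4 normoxic and 4 hypoxic PC3 libraries and 3 normoxic and 3 hypoxic HCT116 libraries.

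Fucosyltransferases move the sugar fucose from its activated form, GDP-fucose, onto glycans or directly onto proteins, mostly in the Golgi apparatus and the endoplasmic reticulum. FUT1 and FUT2 build the H antigen, the base of the ABO blood groups, and FUT3 (the Lewis enzyme) and FUT4 add the fucose of the Lewis antigens. FUT8 adds the core fucose at the root of N-linked glycans. FUT10 and FUT11 were first placed in the family by sequence, and RefSeq now lists them as POFUT3 and POFUT4, protein O-fucosyltransferases, which act on EMI domains of secreted proteins. Hypoxia-inducible factor (HIF) binds DNA at the short core motif ACGTG or GCGTG, and it is the main transcription factor of the response to low oxygen.

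The stretch upstream of FUT11 is shown because FUT11 had the largest hypoxic change of the 7 genes, and that of FUT3 because it was the other gene that was higher in all hypoxic PC3 libraries than in all normoxic ones. FUT11 lies on chromosome 10 from 75532034 to 75540009, on the + strand (GRCh37). FUT3 lies on chromosome 19 from 5842899 to 5851482, on the - strand. The sequences came from the RefSeq promoter table of GRCh38.p14 and matched the GRCh37 genome letter for letter. Both are written 5′ to 3′ on the strand of the gene and leave out bases annotated as untranslated regions.
FUT11, chr10:75531920-75532033, 114 to 1 bases before the start site, with the palindrome CACGTG in capitals: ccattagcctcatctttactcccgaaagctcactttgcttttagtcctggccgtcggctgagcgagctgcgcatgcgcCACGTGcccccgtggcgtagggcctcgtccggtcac
FUT3, chr19:5851483-5851710, 250 to 23 bases before the start site, with both CACGT stretches, each holding ACGTG on the opposite strand, in capitals: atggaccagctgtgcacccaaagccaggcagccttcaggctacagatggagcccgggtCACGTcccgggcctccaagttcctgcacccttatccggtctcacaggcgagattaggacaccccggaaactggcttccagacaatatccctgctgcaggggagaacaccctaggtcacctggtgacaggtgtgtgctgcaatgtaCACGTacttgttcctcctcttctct

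The 250 bases before each RefSeq start site were searched on both strands, for the 6 of 7 genes with an entry (FUT10 had none). The HIF core was searched as ACGTG and as GCGTG, the palindrome as CACGTG and within the longer CCACGTGC. The GC box was searched as GGGCGG and the TATA box as TATAAA. The palindrome CACGTG reads the same on both strands and so holds ACGTG on each. It lay 36 to 31 bases before the start of FUT11, inside CCACGTGC, and in none of the other 5 genes. Over 35116 human start sites, 6.34% held CACGTG and 0.991% held CCACGTGC. ACGTG was found before FUT3, FUT4 and FUT11, against 18.5% of all start sites. GCGTG was found before FUT4 and before 2 of the 3 start sites of FUT8, against 32.2%. GGGCGG was found before FUT2, FUT3, 1 of the 2 start sites of FUT1 and 1 of the 3 of FUT8, against 42.6%, and TATAAA before none of the 6, against 10.7%. A match describes the letters only and is neither a bound site nor a cause.

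The libraries held 71228454 to 150630928 counts assigned to genes, with the lowest totals in hypoxic PC3 (71228454 to 96159803). Levels are CPM, the count of a gene relative to the library total, after TMM scaling, which sets most genes to no change between libraries. RNA amount per cell is therefore not part of the scale. In bulk RNA, a lower level in every cell and fewer cells with the transcript cannot be told apart. The epithelial markers EPCAM, KRT8 and KRT18 were at 273 CPM or more in every library. The intestinal factor CDX2 was at 16.2 to 20.9 CPM in HCT116 and at 0 in PC3, while CDX1, another intestinal factor, was at 0 in all 14 libraries. HOXB13, a prostate factor, was at 61.9 to 92.9 CPM in PC3 and 9.57 to 10.9 in HCT116, and KLK3, another prostate marker, was at 0 in all 14 libraries. All 11 hypoxia check genes, among them CA9, NDRG1 and VEGFA, were called higher in hypoxia in both lines, by 0.65 to 3.38 on the log2 scale in PC3 and by 1.10 to 6.03 in HCT116. A gene was called when edgeR's quasi-likelihood test gave a Benjamini-Hochberg adjusted p under 0.05 over all genes tested.

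FUT11 rose from 69.0 ± 4.15 to 163 ± 13.5 CPM in PC3 (SD, n = 4) and from 14.2 ± 0.326 to 41.97 ± 2.55 CPM in HCT116 (SD, n = 3). The 4 normoxic PC3 libraries held 74.6, 67.4, 69.3 and 64.8 CPM of FUT11, and the 4 hypoxic ones held 158, 182, 163 and 149.7 CPM. Every hypoxic PC3 library was above every normoxic one, with a wide gap between the lowest hypoxic and the highest normoxic value. In HCT116 the normoxic libraries held 14.4, 14.4 and 13.8 CPM and the hypoxic libraries 39.95, 44.8 and 41.1 CPM. Here too the conditions did not overlap, and the spread within a condition was small against the gap between them.

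The fitted change of FUT11 in hypoxia was 1.25 on the log2 scale in PC3 (SE 0.08), a 2.37-fold level, and 1.58 in HCT116 (SE 0.07), a 2.99-fold level. The 4 PC3 pairs with the same replicate number gave 1.08, 1.43, 1.24 and 1.21 on the log2 scale of CPM + 0.1. Leaving out any 1 library kept the PC3 value between 1.20 and 1.29 and the HCT116 value between 1.53 and 1.61. The lines differed far more in the level of FUT11 than in its change. The normoxic level was 2.28 higher in PC3 on the log2 scale (SE 0.08), while the difference in the change in hypoxia, PC3 minus HCT116, was -0.32 (SE 0.11). Hypoxic HCT116 cells, at 39.95 to 44.8 CPM, were below normoxic PC3 cells, at 64.8 to 74.6 CPM.

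**Figure D1:**
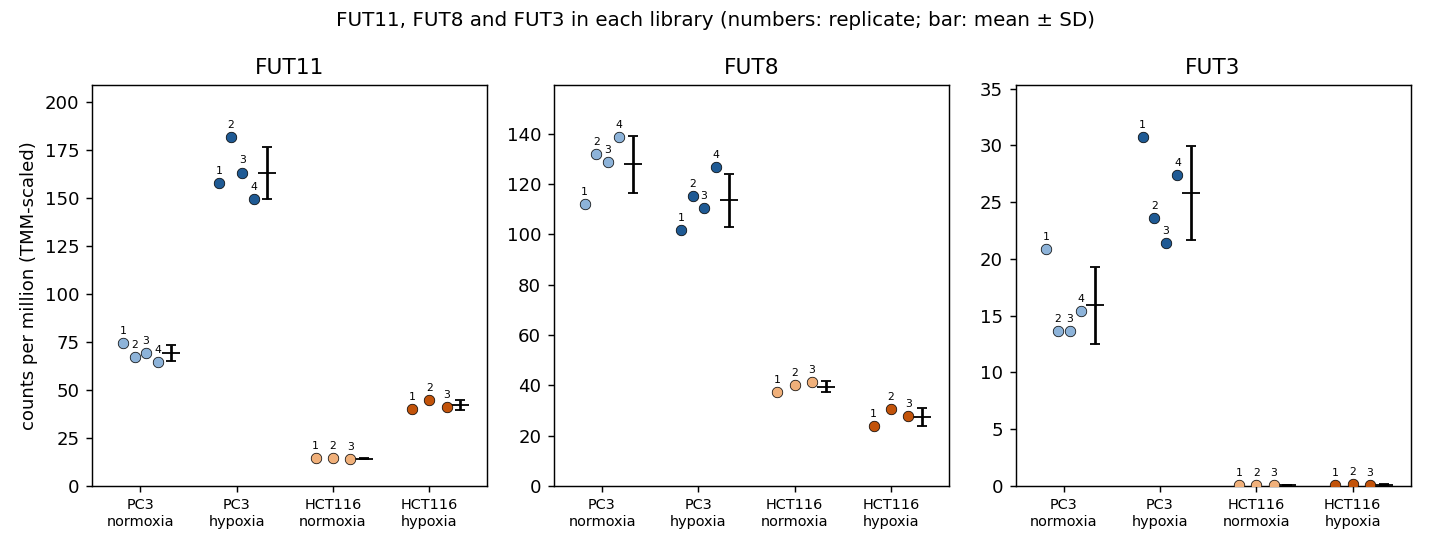
CPM (TMM-scaled, linear axis from 0) of FUT11, FUT8 and FUT3 in each of the 14 libraries by line and condition, with replicate numbers beside the points and the mean ± SD beside each group. FUT11 was higher in every hypoxic than in every normoxic library of the same line, FUT8 was lower in hypoxic HCT116 without overlap and overlapped in PC3, and FUT3 lay near 0 in HCT116.

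The gene next to FUT11 did not share its change. SEC24C, which codes for a coat protein of transport vesicles, ends 114 bases upstream of FUT11 on the same strand. It was at 434 to 475 CPM in normoxic and 434 to 468 CPM in hypoxic PC3, and its fitted log2 change was -0.01 in PC3 (SE 0.07) and 0.05 in HCT116 (SE 0.06), neither of them called. FUT11 held 0.137 to 0.159 CPM per CPM of SEC24C in normoxic PC3 and 0.326 to 0.413 in hypoxic PC3. In HCT116 the same ratio was 0.119 to 0.123 in normoxia and 0.323 to 0.379 in hypoxia, with no overlap between the conditions in either line. The downstream neighbours CHCHD1 (a mitochondrial ribosomal protein gene) and ZSWIM8 were not called in hypoxia in either line, with log2 changes of 0.01 and 0.02 in PC3 and -0.15 and -0.03 in HCT116. The higher normoxic level in PC3 was not particular to FUT11. On the log2 scale, PC3 minus HCT116, SEC24C was at 1.945, ZSWIM8 at 2.245 and CHCHD1 at 0.26, beside 2.28 for FUT11.

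FUT3, the Lewis enzyme, was a PC3 transcript in these data. Normoxic PC3 libraries held 20.9, 13.6, 13.7 and 15.4 CPM and hypoxic PC3 libraries 30.7, 23.6, 21.4 and 27.4 CPM. The lowest hypoxic library was just above the highest normoxic one, so the conditions did not overlap, and replicate 1 was the highest library of both conditions. The fitted log2 change was 0.70 (SE 0.17), and the 4 same-numbered pairs gave 0.56, 0.79, 0.65 and 0.83. The call was lost when some single libraries were left out. Without normoxic replicate 2, 3 or 4 or hypoxic replicate 2, FUT3 was no longer called, at log2 changes of 0.63, 0.64, 0.68 and 0.75.

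HCT116 held almost no FUT3. Its 3 normoxic libraries held 5, 6 and 7 counts of FUT3 and its hypoxic libraries 8, 27 and 8 counts, against 1409 to 2806 counts per library in PC3. These counts were under the limit for testing in HCT116, and the 27 counts of hypoxic replicate 2 set most of the hypoxic mean. In normoxia the level in PC3 was 8.51 higher on the log2 scale (SE 0.35), the largest difference between the lines among the 7 genes. FUT3 passed the count filter of this fit only through PC3, where it is high, so its call there is no test. FUT3 has close paralogs beside it, FUT6 at 3165 bases and FUT5 at 14354 bases, and reads that fit more than 1 of them may have been lost or misplaced. In PC3, FUT6 had 4.26 to 9.98 counts and FUT5 0.713 to 2.69 counts for every 1000 counts of FUT3.

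FUT8, the core fucosyltransferase, was lower in hypoxia in HCT116. The normoxic HCT116 libraries held 37.2, 39.9 and 41.3 CPM and the hypoxic ones 23.8, 30.5 and 27.8 CPM. The conditions did not overlap, and the fitted log2 change was -0.51 (SE 0.09), which leaving out any 1 library kept between -0.60 and -0.43. In PC3 the normoxic libraries held 112, 132, 129 and 139 CPM and the hypoxic libraries 102, 115, 111 and 127 CPM. These ranges overlapped, although each hypoxic library was below the normoxic library of the same number, by 0.14, 0.20, 0.22 and 0.13 on the log2 scale, and the fitted change was -0.17 (SE 0.08). In normoxia FUT8 was 1.70 higher in PC3 on the log2 scale (SE 0.10).

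FUT10, the closest relative of FUT11 in current naming, had the opposite line pattern. It lies on chromosome 8 from 33228342 to 33330664 (- strand). Normoxic PC3 libraries held 6.31, 7.50, 7.35 and 7.68 CPM and hypoxic PC3 libraries 5.65, 5.93, 6.16 and 6.64 CPM, with a log2 change of -0.24 (SE 0.09). Each hypoxic PC3 library was below the normoxic library of the same number, with log2 differences of -0.16, -0.33, -0.25 and -0.21. Neither the main fit nor DESeq2 called FUT10 in PC3. It was called lower with the replicate number as a block, with total-count scaling and in 1 fit over both lines. Those fits called 4074 of 14309, 2295 of 14309 and 2465 of 15493 genes in either direction, against 1620 of 14309 in the main fit. Normoxic HCT116 libraries held 21.6, 21.7 and 22.8 CPM and hypoxic ones 20.5, 19.7 and 20.6 CPM, with a log2 change of -0.10 (SE 0.06). All hypoxic HCT116 libraries were below all normoxic ones, by a margin of about 1 CPM, while the PC3 conditions overlapped. The log2 difference in level in normoxia, PC3 minus HCT116, was -1.61 (SE 0.08), so FUT10 and FUT11 differed in opposite directions between the lines. The gene TTI2, 239 bases from FUT10, was not called in hypoxia in either line. MAK16, a ribosome biogenesis gene 12035 bases away, was called lower in both, at -0.40 in PC3 (edgeR adjusted p = 0.0219) and -0.37 in HCT116 (edgeR adjusted p = 0.00308). In normoxia both neighbours were lower in PC3 than in HCT116, as FUT10 was, TTI2 at -1.69 and MAK16 at -1.25 on the log2 scale.

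The H antigen genes FUT1 and FUT2 lie close together on chromosome 19, FUT2 from 49199228 to 49209208 (+) and FUT1 from 49251268 to 49258647 (-). FUT1 was at 13.3, 10.7, 11.3 and 10.97 CPM in normoxic PC3 and at 13.7, 10.8, 10.9 and 10.4 CPM in hypoxic PC3, where replicate 1 was the highest in each condition. Its log2 change was -0.01 (SE 0.12) in PC3, and its sign turned under median-of-ratios scaling and when single libraries were left out (-0.11 to 0.08). In HCT116, FUT1 was at 9.37, 9.61 and 8.40 CPM in normoxia and at 9.95, 10.9 and 9.95 CPM in hypoxia, a log2 change of 0.19 (SE 0.08) without overlap. FUT1 differed little between the lines, by 0.34 on the log2 scale in normoxia (SE 0.11), and without normoxic HCT116 replicate 3 it was no longer called, at 0.28.

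FUT2, the secretor gene, was mainly an HCT116 transcript. It was at 3.81, 4.03 and 3.75 CPM in normoxic and at 3.75, 3.89 and 4.62 CPM in hypoxic HCT116, and these values overlapped. In PC3 it was at 0.436, 0.452, 0.543 and 0.538 CPM in normoxia and at 0.547, 0.362, 0.269 and 0.343 CPM in hypoxia, from 23 to 65 counts per library. The log2 change was -0.36 (SE 0.26) in PC3 and 0.10 (SE 0.11) in HCT116, called in neither. It was -0.61 in PC3 without hypoxic replicate 1, whose pair went the other way (0.27), and -0.21 without hypoxic replicate 3, and in HCT116 it was 0.01 without hypoxic replicate 3. The log2 difference in level in normoxia, PC3 minus HCT116, was -2.97 (SE 0.19). FUT1 and FUT2, which make the same linkage, thus stood in different proportion in the lines.

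FUT4, the second Lewis-type gene, lies on chromosome 11 from 94277087 to 94283061 (+). It was at 11.2, 9.76, 9.48 and 8.41 CPM in normoxic PC3 and at 8.62, 7.71, 8.93 and 7.63 CPM in hypoxic PC3, where the ranges overlapped. In HCT116 it was at 13.6, 13.1 and 13.4 CPM in normoxia and at 16.0, 13.7 and 15.4 CPM in hypoxia, with hypoxic replicate 2 just above the normoxic libraries. The log2 change was -0.24 (SE 0.11) in PC3 and 0.19 (SE 0.08) in HCT116, and without hypoxic HCT116 replicate 2 the HCT116 value was 0.25 and was called. In normoxia the log2 difference in level of FUT4, PC3 minus HCT116, was -0.46 (SE 0.10). FUT4 shares 602 bases (10.1%) of its exons with PIWIL4 on the same strand, and PIWIL4 had 6 to 36 counts per library.

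**Figure D2:**
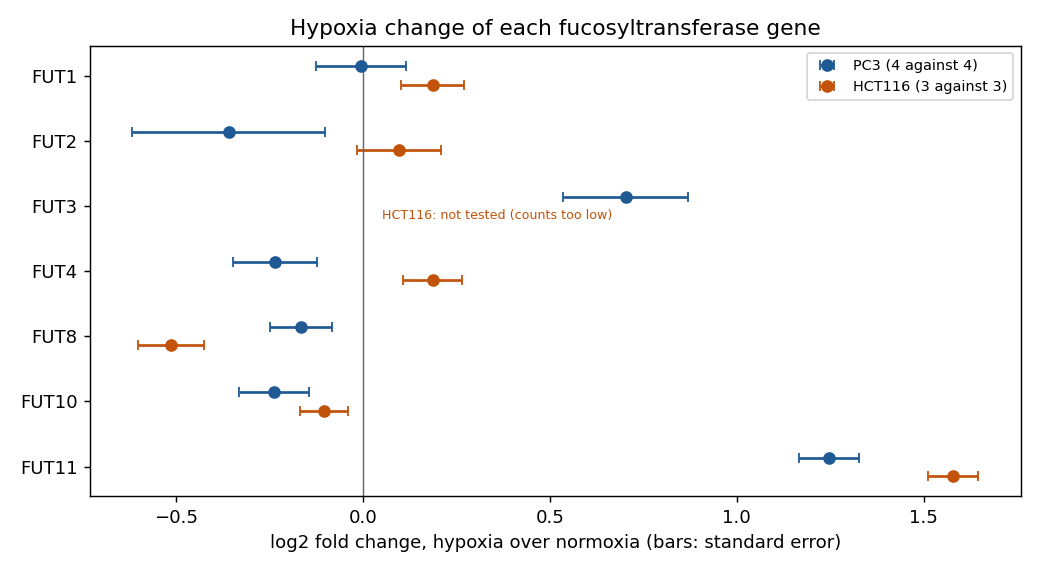
Fitted log2 fold change of hypoxia over normoxia (x axis) for each of the 7 genes (y axis), in PC3 (4 against 4 libraries, blue) and HCT116 (3 against 3, orange), with standard errors as bars. FUT11 stands apart on the right in both lines (1.25 and 1.58), FUT3 follows in PC3 (0.70), FUT8 is lowest in HCT116 (-0.51), and FUT3 was under the count limit for testing in HCT116.

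Counted over the genes, 2 of 7 were called higher in hypoxia in PC3 (FUT3 and FUT11) and none lower, where 11.3% of all 14309 genes tested were called in either direction, 6.03% higher and 5.29% lower. In HCT116, 1 of the 6 tested was called higher (FUT11) and 1 lower (FUT8), where 25.9% of 14120 genes were called, 14.6% higher and 11.3% lower. The conditions did not overlap for 2 of 7 genes in PC3, against 20.9% of all genes tested. In HCT116 they did not overlap for 5 of the 6 tested genes, against 42.5%. The median log2 change of the genes was -0.17 in PC3 and 0.14 in HCT116, against 0.00 over all genes in each line. With the replicate number as a block, 4 of 7 genes were called in PC3, FUT8 (-0.17, SE 0.05) and FUT10 (-0.24, SE 0.07) having joined as lower, where that fit called 28.5% of all genes, 14.9% higher and 13.6% lower. Because the genes were chosen for such values, nothing is read from these counts.

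None of the 7 genes was called for a difference between the lines in the change in hypoxia by edgeR or by DESeq2. Of all 15493 genes, edgeR called 2.32%, 1.01% with a larger and 1.31% with a smaller response in PC3. An unadjusted edgeR p under 0.05 was found for 3 of the 7 (FUT4, FUT8 and FUT11) and for 2481 of the 15493 genes. Because the 7 were chosen with their values known, nothing is read from this count. The fitted differences, PC3 minus HCT116 on the log2 scale, were -0.41 for FUT4 (SE 0.14), 0.36 for FUT8 (SE 0.14) and -0.32 for FUT11 (SE 0.11). The change of FUT4 was called in neither line, and its fitted values there were of opposite sign. With the replicate block, FUT4 (-0.40, SE 0.11) and FUT8 (0.36, SE 0.09) were called, where that fit called 8.43% of all genes, 3.85% larger and 4.58% smaller in PC3. All 7 genes were called for their level between the lines in normoxia, 4 higher in PC3 (FUT1, FUT3, FUT8 and FUT11) and 3 lower (FUT2, FUT4 and FUT10), where 81.3% of all genes were called, 42.4% higher and 38.9% lower. With at least 10 counts required in every library, FUT3 was left out and the other 6 were called. None of the 7 overlapped between the lines in normoxia, against 82.4% of all genes without overlap.

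Levels of different genes were set side by side as CPM per kilobase of the longest annotated transcript. In normoxic PC3 the order was FUT11 (28.7 ± 1.72), FUT8 (24.8 ± 2.20), FUT3 (6.19 ± 1.33), FUT1 (3.37 ± 0.346), FUT10 (2.03 ± 0.173), FUT4 (1.63 ± 0.194) and FUT2 (0.158 ± 0.018), as mean ± SD with n = 4. The ranges of FUT10 and FUT4 overlapped, and those of FUT11 and FUT8 nearly touched. Per kilobase of all exon bases joined, the first 2 changed places, FUT8 at 18.3 and FUT11 at 14.01, and so did FUT4 at 1.63 and FUT10 at 1.35. In hypoxic PC3, FUT11 stood first at 67.8 ± 5.62 CPM per kilobase, well above FUT8 at 21.98 ± 2.02 and FUT3 at 10.1 ± 1.60. This order rests on the length taken: per kilobase of the median transcript, FUT8 was first in PC3 in both conditions, at 176 against 32.5 for FUT11 in normoxia and 156 against 76.9 in hypoxia.

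In normoxic HCT116 the first place was held by FUT8 (7.64 ± 0.405 CPM per kilobase), ahead of FUT10 (6.22 ± 0.187) and FUT11 (5.91 ± 0.135), with n = 3. FUT1 (2.67 ± 0.187), FUT4 (2.24 ± 0.048), FUT2 (1.24 ± 0.047) and FUT3 (0.017 ± 0.004) followed, and no neighbouring ranges overlapped. In hypoxic HCT116, FUT11 was first at 17.4 ± 1.06 CPM per kilobase. FUT10 (5.71 ± 0.133) and FUT8 (5.30 ± 0.656) came next, with overlapping ranges. By joined exons FUT4 passed FUT1 in HCT116 in both conditions (2.24 against 2.10 in normoxia) and FUT8 passed FUT10 in hypoxia (3.92 against 3.80). By median transcript FUT8 was first in hypoxic HCT116 too, at 37.6 against 19.8 CPM per kilobase for FUT11.

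As a share of the summed level per kilobase of the 7 genes, FUT11 made up a mean of 42.9% (40.3% to 45.2%) in normoxic and 63.7% (60.0% to 66.7%) in hypoxic PC3, and 22.8% (22.03% to 23.4%) in normoxic and 49.4% (48.4% to 50.5%) in hypoxic HCT116. FUT8 made up 37.1% ± 3.77 and 20.7% ± 2.10 in PC3, and 29.5% ± 1.23 and 15.0% ± 1.22 in HCT116, for normoxia and hypoxia in turn. The shares depend on the transcript length taken for FUT11, whose exons joined span 4925 bases against 2408 in its longest transcript. Per joined exons the FUT11 share was 32.4% and 52.6% in PC3 and 15.9% and 38.1% in HCT116, with FUT11 first of the 7 in hypoxia in both lines. By median transcript the share was 26.4% in hypoxic PC3 and 21.5% in hypoxic HCT116, and FUT8 was first. FUT3 made up 9.25% ± 1.81 of the sum in normoxic PC3 and 0.064% ± 0.013 in normoxic HCT116.

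**Figure D3:**
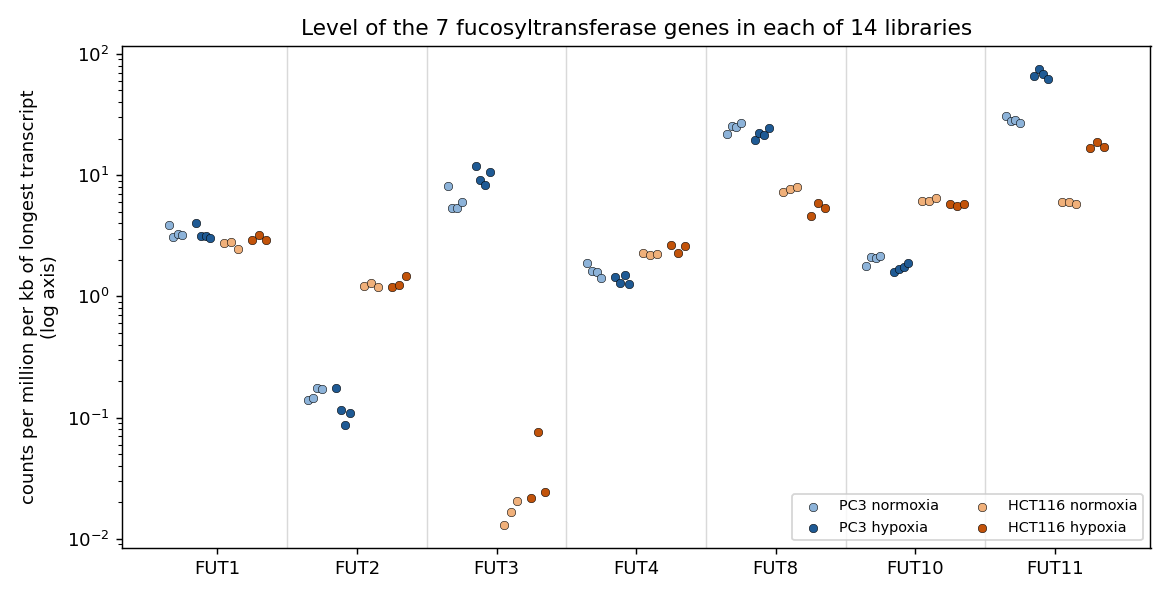
CPM per kilobase of the longest transcript (log axis) of the 7 genes in each of the 14 libraries, in normoxia (light) and hypoxia (dark) for PC3 (blue) and HCT116 (orange). FUT11 moves up in hypoxia in both lines, FUT3 is separated by line, and FUT2 and FUT10 are higher in HCT116.

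The 5 genes whose log2 CPM followed FUT11 most closely over the 14 libraries, of 15493 genes, were HK1, RNF24, WFDC3, FAM115C and SPAG4, with Pearson correlations of 0.993, 0.992, 0.989, 0.988 and 0.988. HK1 codes for a hexokinase. The 14 points share line and oxygen, so any gene that is higher in PC3 and in hypoxia by like steps comes close to this pattern. By Spearman correlation the first 5 were TENM3, NPR3, PLS3, PPARD and ZSWIM5 (0.987 to 0.991), none of them among the first 5.

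The other fucosyltransferase genes were mostly at the floor of detection or did not pass the test. FUT5 had at most 6 counts, FUT7 at most 2 counts and FUT9 at most 23 counts in any library. FUT6, the plasma-type Lewis enzyme, had 6 to 20 counts in normoxic PC3, 9 to 28 counts in hypoxic PC3 and at most 1 count in HCT116. Libraries at 0 counts allow up to 3 counts. The fitted log2 change of FUT6 in PC3 was 1.02 (SE 0.45, edgeR adjusted p = 0.172), which became 1.03 with an adjusted p of 0.0441 under the replicate block. POFUT1, which places O-fucose on the EGF repeats of Notch, was at 209 to 243 CPM in normoxic and 206 to 257 CPM in hypoxic PC3, and at 83.4 to 96.6 CPM in HCT116. POFUT1 and POFUT2 were called in neither line, and edgeR called 0 of 4 tested genes of this group in PC3 and 0 of 2 in HCT116, with 1 (FUT6) and 0 at an unadjusted p under 0.05 and 0 by DESeq2 in each. Of all genes tested, edgeR called 11.3% in PC3 and 25.9% in HCT116.

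GDP-fucose supply was followed in 11 genes, from mannose phosphate to the transporters of GDP-fucose. In PC3 none rose and 1 fell, where 11.3% of all genes were called. FPGT, which makes GDP-fucose from salvaged fucose, went from 8.44 to 9.57 CPM in normoxia to 5.53 to 6.96 CPM in hypoxia, a log2 change of -0.49 (SE 0.10, edgeR adjusted p = 0.0169). In HCT116, 2 rose and none fell, where 25.9% of all genes were called. MPI, which links fructose and mannose phosphates, went from 26.4, 29.5 and 30.1 CPM to 55.0, 57.9 and 59.9 CPM, a log2 change of 1.02 (SE 0.07, edgeR adjusted p = 2.57e-06), the largest change of the list. MPI was at 0.33 in PC3 (SE 0.16, edgeR adjusted p = 0.204). The replicate block called it there at 0.30 (adjusted p = 0.0469), and FPGT, FUK and PMM2 as lower, where that fit called 28.5% of all genes. The difference of MPI between the lines was -0.68 (SE 0.20, edgeR adjusted p = 0.101) and was not called in the main fit. With the replicate block it was -0.71 (adjusted p = 0.00452) and was called, as it was by DESeq2. For this difference the block called 1306 and DESeq2 974 of 15493 genes, against 359 in the main fit. SLC35C2, a member of the transporter family of SLC35C1, was called at 0.19 (SE 0.06, edgeR adjusted p = 0.046), a call that most alternatives ended. GMDS and TSTA3, the 2 enzymes that turn GDP-mannose into GDP-fucose, were called in neither line, at 0.08 and -0.05 in PC3 and 0.06 and -0.07 in HCT116.

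The enzymes that build or cap the chains of the H and Lewis antigens gave 2 calls of 15 tested in each line, all higher in hypoxia, where 11.3% of all genes were called in PC3 and 25.9% in HCT116. In PC3 these were the sialyltransferases ST3GAL6 (0.49, SE 0.11, edgeR adjusted p = 0.0231) and ST3GAL1 (0.36, SE 0.07, edgeR adjusted p = 0.0146). ST3GAL1 went from 280 to 329 CPM in normoxic PC3 to 353 to 391 CPM in hypoxic PC3, without overlap. In HCT116 they were B3GNT3 (0.42, SE 0.08, edgeR adjusted p = 0.00453), which extends chains with N-acetylglucosamine, and the galactosyltransferase B4GALT2 (0.22, SE 0.07, edgeR adjusted p = 0.0338). B3GNT3 was at 10.3 to 11.4 CPM in normoxic and 13.1 to 15.3 CPM in hypoxic HCT116. The median log2 change of the list was 0.10 in PC3 and 0.02 in HCT116, and with the replicate block ST3GAL4 joined the PC3 calls.

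Of the N-glycan processing enzymes that act ahead of or beside FUT8, 2 of 10 tested rose in PC3, and 3 rose and 1 fell of 11 tested in HCT116, beside the same 11.3% and 25.9% of all genes. MGAT5, which adds a branch to N-glycans, was called in both lines, at 0.39 in PC3 (SE 0.11, edgeR adjusted p = 0.0488) and 0.26 in HCT116 (SE 0.06, edgeR adjusted p = 0.0107). Neither call held under every alternative. Total-count scaling ended both (edgeR adjusted p = 0.109 in PC3 and 0.108 in HCT116). In PC3, upper-quartile scaling and leaving out the count filter did so too (edgeR adjusted p = 0.0712 and 0.0554). MAN1C1, a Golgi mannosidase, doubled its level in PC3, from 0.315 to 0.436 CPM to 0.733 to 0.827 CPM, a log2 change of 1.01 (SE 0.19, edgeR adjusted p = 0.0101) from 38 to 80 counts per library. In HCT116 the mannosidase MAN1A1 (0.29, SE 0.07, edgeR adjusted p = 0.0147) and MGAT1 (0.23, SE 0.06, edgeR adjusted p = 0.0174), whose product FUT8 acts on, were called higher. MAN2A2, a second-step Golgi mannosidase, was called lower in HCT116 at -0.35 (SE 0.07, edgeR adjusted p = 0.00407), from 24.0 to 24.8 CPM down to 17.5 to 20.3 CPM. With the replicate block, 3 of these genes were called in PC3, MGAT1 having joined at 0.25 (adjusted p = 0.0382).

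Of the 4 genes that extend O-fucose, none was called in PC3 by edgeR or DESeq2, with 1 (LFNG) at an unadjusted p under 0.05, which the replicate block called higher. RFNG, a fringe enzyme of Notch, was called lower in HCT116 at -0.26 (SE 0.07, edgeR adjusted p = 0.0147). Among the EMI domain proteins, the substrates ascribed to FUT10 and FUT11, none of 4 tested was called in PC3 by either tool and none had an unadjusted p under 0.05. In HCT116, EMID1 was called higher at 0.38 (SE 0.11, edgeR adjusted p = 0.0237). Of the fucosidases, which remove fucose in lysosomes or outside cells, FUCA1 was called in HCT116, from 17.5, 18.2 and 20.1 CPM to 21.4, 22.6 and 23.2 CPM, a log2 change of 0.28 (SE 0.07, edgeR adjusted p = 0.0158). Neither fucosidase was called in PC3 by either tool or had an unadjusted p under 0.05 there. These counts stand beside 11.3% of all genes called by edgeR in PC3 and 25.9% in HCT116.

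Over all 58 genes of these lists, 4 of 50 tested were called higher and 1 lower in PC3, and 9 of 49 higher and 2 lower in HCT116, with a median log2 change of 0.04 in each line. The shares stand beside 11.3% and 25.9% of all genes. Because the lists were chosen with earlier results known, these counts are a description. With the replicate block the PC3 counts were 9 higher and 3 lower, beside 14.9% and 13.6% of all genes in that fit. In PC3, MAN1C1 kept its call under each scaling, filter, tool and fit tried and without any 1 library, while FPGT, ST3GAL1, ST3GAL6 and MGAT5 each lost it when 1 of several libraries was left out, such as normoxic replicate 2 (adjusted p of 0.0548, 0.066, 0.0636 and 0.122). In HCT116, MPI, B3GNT3 and MAN2A2 kept theirs under the same alternatives, and the other 8 each lost it under at least 1 of them. Of these 3 HCT116 genes, B3GNT3 and MAN2A2 changed by less than 1 on the log2 scale.

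**Figure D4:**
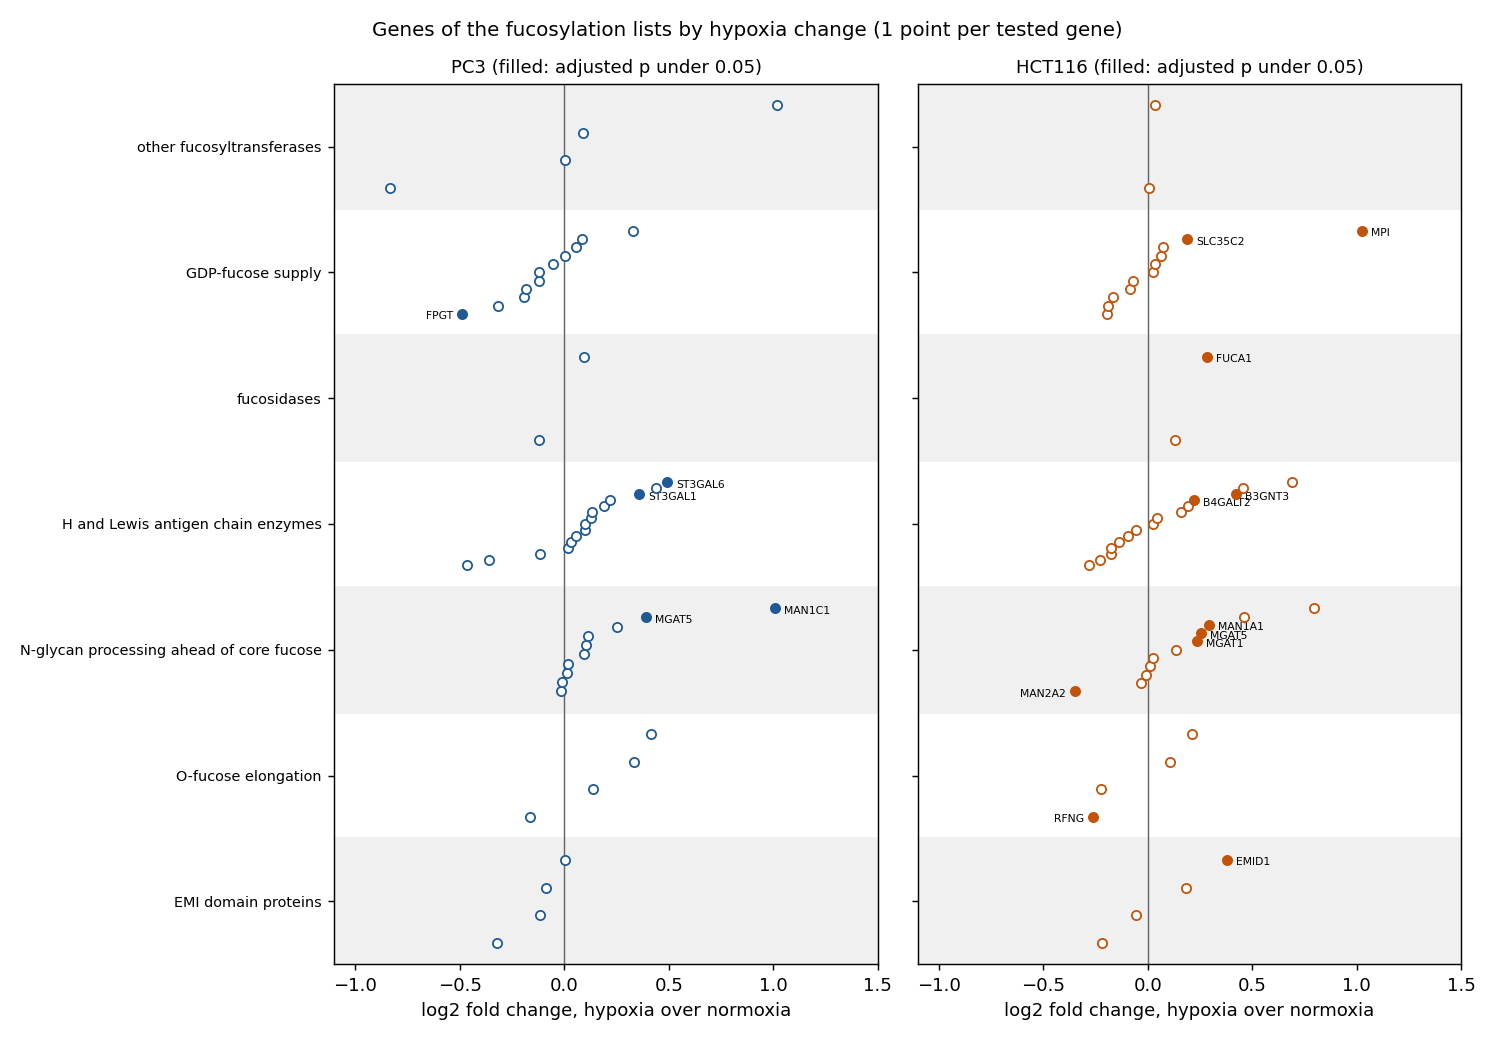
Fitted log2 fold change of hypoxia over normoxia (x axis) for each tested gene of the 7 fucosylation lists (y axis, 1 point per gene, spread within a list by rank) in PC3 (left) and HCT116 (right), with called genes filled and named. Most points lie within 0.5 of 0, and MPI in HCT116 (1.02) and MAN1C1 in PC3 (1.01) are the called genes farthest from it.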

How the data were processed

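RNA-seq counts of 14 libraries (PC3, 4 normoxic and 4 hypoxic; HCT116, 3 and 3) were analysed. The authors' deposited files hold whole-number counts per gene symbol, not normalised. Per the study's methods and the submitters' processing notes, reads were mapped to GRCh37 with HISAT2 (2.05) after removal of ERCC spike-in reads and counted with HTSeq (0.5.4p3). The strand setting of the counting was not given in the sources used here, and spike-in scaling was not used here. Library totals of 71228454 to 150630928 counts set the precision, and a count of 0 was taken to allow up to 3 counts, for counting error only. The replicates were biological replicates per the study's methods, and replicate libraries differed by more than sampling noise.

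Counts were tested in edgeR (4.0.16) with limma (3.58.1) in R (4.3.3): TMM scaling, filterByExpr, and the quasi-likelihood test with Benjamini-Hochberg adjustment over all genes tested (14309 in PC3, 14120 in HCT116, 15493 over both lines), called at an adjusted p under 0.05. Each line was fitted alone for hypoxia against normoxia, and all libraries together for the lines and the difference of their responses. Standard errors came from the fold change and its F statistic. CPM were taken after TMM over all libraries, per kilobase of the longest transcript of GENCODE v44lift37. For correlations, 1 was added as the prior count before logs were taken. The fit recovered known changes in data simulated under its own model without replicate pairing. That is no check of the model on the real counts.

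The PC3 replicate numbers were taken to pair libraries, because same-numbered libraries deviated together (correlations 0.675, 0.267, 0.14 and 0.282 of deviations from group means), a pairing seen in the data and not stated in the labels. The main fits left this pairing out, and it entered a fit only as the replicate block. The alternatives were other scalings, DESeq2 (1.42.0), other count filters, the replicate block, 1 fit over both lines, a minimum log2 change of 1, each library left out and other transcript lengths. Leaving out PC3 replicate 1 in both conditions and joined exon lengths were added after seeing the data. The 7 genes and the gene lists were chosen with earlier results of these data known. The genes named are these 7, list genes that were called in a line or for the line difference (up to 10 per list), the 5 genes most like FUT11, and genes within 20 kb of the 7. Other genes named without a call (POFUT1, POFUT2, GMDS, TSTA3, LFNG, FUK, PMM2, ST3GAL4 and those low in count) were chosen after their values were seen.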

Additional observations from a re-analysis of the deposited data

Results flagged for a closer look

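In 46 groups of 4 PC3 libraries, 1 library stood apart from the other 3 by Dixon's test 4 times, where chance gives about 2.3. FUT1 was at 13.7 CPM in hypoxic PC3 replicate 1, against 10.4 to 10.9 CPM in the other hypoxic PC3 libraries. ST3GAL1 was at 329 CPM in normoxic PC3 replicate 4, against 280 to 286 CPM. FUCA1 was at 32.4 CPM in normoxic PC3 replicate 1, against 20.8 to 22.4 CPM. MGAT1 was at 158 CPM in normoxic PC3 replicate 1, against 140 to 143 CPM.

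MMRN1, which codes for an EMI domain protein of platelets and endothelium, had a fitted difference between the lines in the change in hypoxia of 5.35 on the log2 scale, which edgeR called. It had 456 to 729 counts in normoxic and 357 to 480 counts in hypoxic PC3 libraries, and 3 to 8 counts in normoxic and 0 in all hypoxic HCT116 libraries. MMRN1 passed the count filter of this fit only through PC3, where it is high, so its call there is no test. The fitted value rests on libraries at 0 and is no bound on the difference.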

How the results depend on the processing

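Of 769 values of single genes under an alternative, 692 kept their direction and side of the threshold, 62 lost a call, 8 gained one and 7 turned sign, all without a call. These were FUT1 in PC3 (0.00048 with median-of-ratios scaling, 0.00075 with DESeq2, and -0.113 to 0.0777 with 1 library left out, above 0 without normoxic replicate 1 or hypoxic replicate 2, 3 or 4) and the line difference of FUT3 (-0.59, and -0.896 to 0.23 with 1 library left out, above 0 without hypoxic HCT116 replicate 2). The number of genes called in PC3 was 1620, and moved to 2601 with DESeq2, 2465 in 1 fit over both lines and 204 with a log2 change of at least 1. In HCT116 it was 3658, and moved to 1733 in 1 fit over both lines and 291 with a log2 change of at least 1, and between the lines it was 12594 and moved to 6941 with that minimum. The calls for the line difference were 359, and 974 with DESeq2.

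With the replicate block, which pairs same-numbered libraries, PC3 gave 4074 calls and the line difference 1306, and 4 and 2 of the 7 fucosyltransferases were called. Among the HCT116 calls named, the block ended that of SLC35C2 alone (adjusted p = 0.0533). There the same-numbered libraries correlated at 0.0908, 0.138 and 0.0429, each best with its own number, a hint from the data and not from the design. Across the lines the numbers were not correlated (-0.0289 to 0.0151).

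Leaving out 1 library gave 553 to 2085 calls in PC3 (553 without normoxic replicate 3 and 574 without normoxic replicate 2), 2560 to 3339 in HCT116, 12152 to 12924 between the lines, and 177 to 717 for the line difference (177 without hypoxic HCT116 replicate 2 and 717 without hypoxic PC3 replicate 4). The fucosyltransferases called were then 1 to 2 in PC3, 2 to 3 in HCT116, 6 to 7 between the lines and 0 to 0 for the line difference. With total-count scaling 4 were called in PC3, FUT8 and FUT10 having joined as lower, where that fit called 562 genes higher and 1733 lower of 14309. With a log2 change of at least 1 it was 1 in PC3 and 1 in HCT116, FUT11 in both. Of all genes, 204 of 14309 in PC3 and 291 of 14120 in HCT116 passed that minimum. Leaving out PC3 replicate 1 in both conditions kept 2 called in PC3, with FUT11 at 1.30 and FUT3 at 0.77. That fit called 1007 genes higher and 776 lower of 14305.

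Total-count scaling moved the median log2 change of all genes by -0.105 in PC3, -0.0921 in HCT116 and 0.079 between the lines, and turned 863 higher and 757 lower calls in PC3 into 562 and 1733, and 2061 and 1597 in HCT116 into 1286 and 3146. Upper-quartile scaling gave 681 and 1048 in PC3, and 115 and 278 for the line difference, against 156 and 203.

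The FUT11 share of the summed level per kilobase was 12.8% in normoxic and 26.4% in hypoxic PC3 and 7.04% in normoxic and 21.5% in hypoxic HCT116 by median transcript length, by which FUT8 was first in all 4 groups, and by joined exons 32.4%, 52.6%, 15.9% and 38.1%. Leaving out 1 library kept it at 42.1% to 43.7%, 62.6% to 64.9%, 22.5% to 23.2% and 48.8% to 49.8%. Of the 5 genes most like FUT11, 0 were found again by Spearman correlation and 3 to 5 with 1 library left out. Of the HCT116 list calls, without 1 library FUCA1 (normoxic replicate 1, adjusted p = 0.0747), RFNG (normoxic replicate 1, adjusted p = 0.0567), MAN1A1 (hypoxic replicate 2, adjusted p = 0.0566), MGAT5 (normoxic replicate 2, adjusted p = 0.0525), MGAT1 (normoxic replicate 2, adjusted p = 0.0945), B4GALT2 (normoxic replicate 2, adjusted p = 0.16) and EMID1 (normoxic replicate 1, adjusted p = 0.0947) were lost, and SLC35C2 was lost without any 1 library. The cause of these moves was not tested. FUT3 in HCT116 (5 to 27 counts) and FUT2 in PC3 (23 to 65 counts) rest on few counts.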
